A study of Mus musculus with 10 samples.

Results

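Integrin, laminin and collagen genes were taken as the protein-coding genes whose GENCODE name carries the family stem for an integrin alpha or beta subunit, a laminin alpha, beta or gamma chain, or a collagen chain. The rule used names only and found 81 of 21951 protein-coding genes, of which 26 encode integrin subunits, 11 laminin chains and 44 collagen chains. ATAC-seq, an assay that marks open chromatin by where a transposase can insert adapters, was used on neural stem cells cultured from the subependymal zone (SEZ) of mice aged 10 weeks. Cells were wild-type (WT) or came from mice without Cdkn1b, whose product p27 inhibits cyclin-dependent kinases and holds back cell division (p27KO). Proliferating cells (PRO) were neurospheres floating for 3 days in medium to which the mitogens EGF (20 ng/ml) and FGF (10 ng/ml) were added. Cells at the onset of differentiation (DIFF) spent 2 days attached to Matrigel with FGF and then 24 h without mitogens in 2% serum. Each condition was measured in 3 libraries for WT and in 2 for p27KO, all made from 50000 cells. The comparison of DIFF with PRO asked how accessibility changed when cells left proliferation, and it covers attachment to Matrigel, serum and loss of mitogens together, which cannot be told apart.

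Integrins are receptors made of an alpha and a beta subunit, which span the cell membrane and link the extracellular matrix to the actin cytoskeleton. Laminins are trimers of an alpha, a beta and a gamma chain, and with type IV collagen they form the sheets of basement membranes. Collagen chains wind into triple helices, some of which pack into fibrils, while others build networks, sit on fibril surfaces or span the membrane. In the adult SEZ, neural stem cells touch the laminin-rich basement membranes of blood vessels, and integrins that contain the alpha6 or the beta1 subunit bind laminin there. Matrigel is an extract of basement membrane whose main proteins are laminin and type IV collagen.

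The lists held 57534 to 91801 peaks, and WT DIFF replicate 3 stood apart with 88738 against 61783 and 57534 in the other WT DIFF libraries. The files hold peaks and no reads, so the depth is unknown and a missing peak means only that none was called. The start region of Cdkn1b was listed in 6 of 6 WT and 0 of 4 p27KO libraries, as their titles say, although a free-text label of the p27KO libraries names WT. The starts of the Y-linked genes Ddx3y, Uty, Eif2s3y and Kdm5d had a peak in the same 6 WT libraries and in none of the p27KO libraries, so genotype and sex of the source cannot be told apart. All 8 neural stem and progenitor markers examined, among them Sox2, Nes and Slc1a3, had a peak within 1 kb of the start in all 10 libraries. Of the markers of other cell types, 4 of 6 endothelial genes (Pecam1, Cdh5, Tie1 and Tek), 5 of 6 microglial genes and 1 of 4 neuronal genes (Rbfox3) had none in any library. Kdr, P2ry12 and Tubb3 were listed in all 10, the neuronal gene Stmn2 in 9, and Dcx (neuronal) and Cldn5 (endothelial) in 1 each. A peak at a start does not show that a gene is expressed. Of the 6 pericyte and fibroblast markers, cells that make much collagen, 0 were without a peak in every library, Tbx18 was listed in all 10, and Rgs5, Dcn, Lum and Twist2 were listed in 2 or 3. Pdgfrb was listed in 0 of 3 WT PRO, 2 of 3 WT DIFF, 1 of 2 p27KO PRO and 2 of 2 p27KO DIFF libraries, and the part of such cells in the results was not tested.

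Peaks of all lists that overlapped by at least 1 bp were merged into regions, and a region was given to a gene when its summit lay within 3 kb of the gene's start or inside the gene body. The 81 genes held 699 of 137454 such regions, of which 190 had a peak in 1 library, 509 in at least 2, 365 in at least 5 and 174 in all 10. At 76 genes at least 1 region was listed in 2 or more libraries. The other 5 were Itgam, Itgax and Itgb2, which encode integrin subunits of leukocytes, Col10a1 of growth plate cartilage, and Col1a2, which with Col1a1 forms the main collagen of bone and skin. Of the 509 regions, 122 belonged to integrin, 99 to laminin and 288 to collagen genes. The share with a peak was 75.2%, 73.3% and 69.4% in the WT PRO libraries and 55.4%, 52.1% and 76.2% in the WT DIFF libraries. It was 81.9% and 72.9% in p27KO PRO and 58.0% and 70.1% in p27KO DIFF libraries. These shares broadly followed list length, with WT DIFF replicate 3 above every WT PRO library. Member regions made up 0.482% to 0.530% of all such regions with a peak in each of the 10 libraries, so their portion of a list hardly moved.

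Start regions listed in at least 2 libraries numbered 80, of which 83.8% to 90% had a peak in PRO libraries and 66.2% to 82.5% in DIFF libraries. At collagen genes these shares were 83.7% to 91.8% and 57.1% to 77.6%, and at laminin genes 84.6% to 100% and 61.5% to 76.9%. Integrin start regions had 83.3% to 100% over all 10 libraries. The same shares over all genes are not given here, and DIFF lists were mostly shorter. Of the 81 genes, 64 had a start region in at least 2 libraries and 43 had one in all 10, namely 14 of 26 integrin, 6 of 11 laminin and 23 of 44 collagen genes. The height of a peak is given as its percentile by fold enrichment among the peaks of its own list. Start regions of integrin genes ranked highest, with a median percentile from 67.0 to 84.5 over the 10 libraries. The median was 36.8 to 63.1 for laminin and 43.9 to 54.8 for collagen start regions. The plot of start regions shows these levels for the best known subunits and chains.

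**Figure D1:**
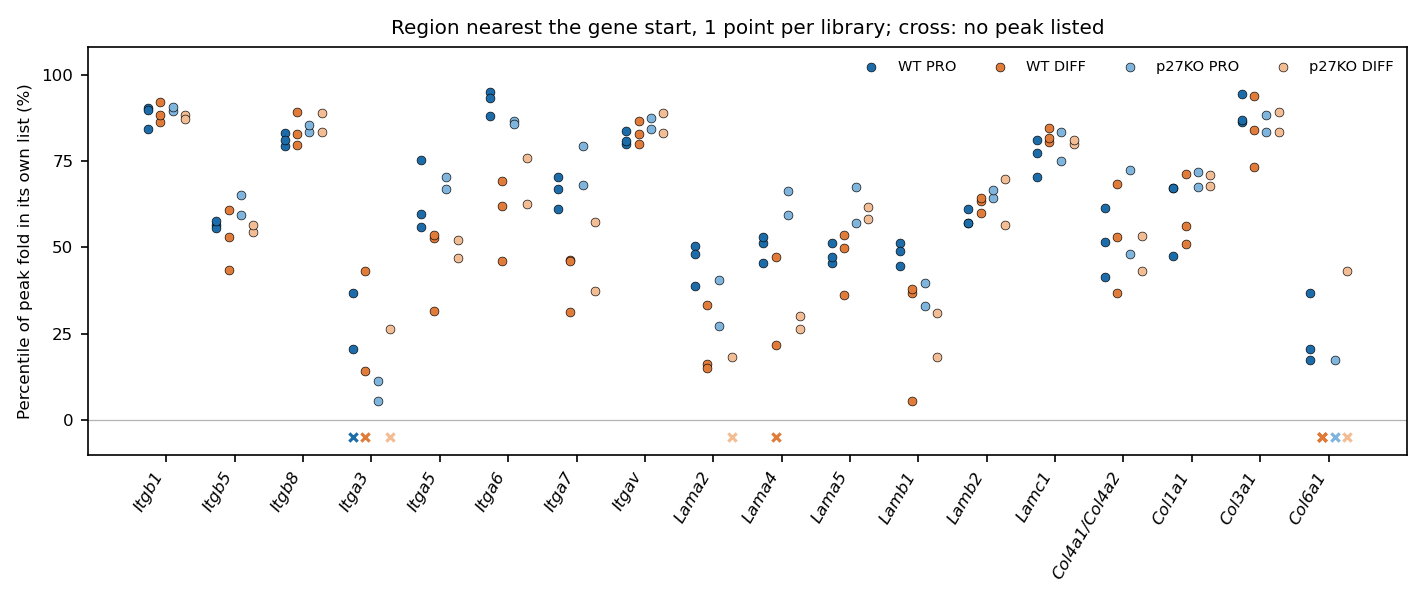
Percentile of peak fold enrichment (y axis, %) of the region nearest the start of integrin, laminin and collagen genes, with 1 point for each of the 10 libraries, coloured by group, and a cross where no peak was listed. Itgb1, Itgb8, Itgav and Lamc1 stayed above 70 in all libraries, while all WT DIFF points of Itga6 lay below its WT PRO points. The same separation held in WT for Itga5, Itga7, Lama2, Lamb1 and Col6a1, none of which was called.

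Itgb1, the beta subunit shared by most laminin and collagen receptors, had a start region at chr8:128685086-128686589 (GRCm38) with a peak in all 10 libraries. Its percentiles were 90.2, 84.4 and 89.8 in WT PRO, 86.4, 92.2 and 88.3 in WT DIFF, 89.6 and 90.5 in p27KO PRO, and 88.3 and 87.1 in p27KO DIFF. The groups overlapped, and the change at DIFF in WT was 0.12 ± 0.19 (SE) in normal score (limma adjusted p = 0.696). A normal score places a region by its rank within its own list, in units of 1 SD of a normal curve, and regions without a peak share the lowest rank. Itgav, the alpha subunit of RGD-binding receptors, and Itgb8, its partner in activating latent TGF-beta, had start regions between the 79.3 and 89.2 percentiles in all 10 libraries. Their changes in WT were 0.16 ± 0.19 and 0.20 ± 0.20 (SE), and neither passed the test (limma adjusted p = 0.621 and 0.515). Among laminin genes, Lamc1, the gamma chain of most laminin trimers, had its start region between 70.3 and 84.7 in all libraries (WT change 0.31 ± 0.18, SE, limma adjusted p = 0.250). Lamb2 lay between 56.4 and 69.8, and Lama5 between 36.2 and 67.5. Col4a1 and Col4a2, the main chains of type IV collagen, are transcribed in opposite directions from a shared start region at chr8:11312289-11313485, which lay between 36.8 and 72.5 and changed by 0.24 ± 0.23 (SE) in WT (limma adjusted p = 0.503). Col4a3 and Col4a4 shared a start region in the same way. Col4a5 and Col4a6 had different nearest regions, at chrX:141475146-141476109 with a peak in 10 libraries and at chrX:141473666-141474100 with a peak in 5.

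Few start regions changed. Over all genes, the tested region nearest the start was called in WT at 0.793% of 14504 genes and in p27KO at 0.379%, by limma with adjustment over genes. Of the 58 member genes with such a region, 2 were called in WT and 1 in p27KO. Itga6, the alpha subunit of the laminin receptors alpha6beta1 and alpha6beta4, was the member whose start region fell in WT. At chr2:71744416-71745602, with its summit 0.3 kb upstream of the start, the percentiles were 94.9, 93.2 and 88.1 in WT PRO and 46.1, 62.1 and 69.2 in WT DIFF libraries. They were 86.7 and 85.6 in p27KO PRO and 62.7 and 75.9 in p27KO DIFF, so DIFF libraries lay below PRO libraries in both genotypes without overlap. The change was −1.09 ± 0.19 (SE) in WT (limma adjusted p = 0.0280 over genes) and −0.42 ± 0.24 in p27KO (limma adjusted p = 0.553). The difference between the genotypes was 0.66 ± 0.31 (limma adjusted p = 0.999). Over genes, the WT call was lost with a replicate block, with the WT libraries fitted alone, and when WT PRO replicate 1 or 2 or any WT DIFF library was left out. Itgae, the alpha subunit that binds E-cadherin on T cells, was called higher in WT and in p27KO from a region 2.1 kb upstream of its start, which lies inside the neighbouring gene Ncbp3. Its percentiles in WT were 2.61 and no peak in 2 PRO libraries, against 31.5, 23.7 and 55.2 at DIFF, and the change was 1.32 ± 0.18 in WT and 1.40 ± 0.22 in p27KO (limma adjusted p = 0.00819 and 0.0280 over genes). The p27KO call was lost without any 1 of the 4 p27KO libraries, WT PRO replicate 3 or WT DIFF replicate 1. At an unadjusted p under 0.05, 10 of 58 member starts (17.2%) differed in WT against 15% of all genes, and 7 (12.1%) in p27KO against 9.87%.

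When every tested region was used, with adjustment over all 70627, 8 of the 70 regions within 3 kb of a member's start were called in WT (11.4%) against 5.86% of all regions near gene starts. In p27KO these were 2 of 70 (2.86%) against 2.83%. The WT calls were lower at Itga6, Lama5, Col16a1 and Col5a3 and higher at Itgae, Col25a1, Col8a2 and Col9a2. Those of Lama5, Col16a1, Itgae, Col25a1 and Col8a2 met the filter of 5 libraries largely through the condition where they are high. The WT share of member starts therefore rests partly on the filter. The Col5a3 region also lay within 3 kb of the start of Rdh8. In p27KO only Col16a1, lower, and Itgae, higher, were called among the start regions, and the Col16a1 region had a peak in PRO libraries only.

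The tested member regions mostly lay in introns, called or not. Of the 365 tested member regions, 42 were lower at DIFF in WT (11.5%) and 40 were higher (11.0%), against 10.1% lower and 9.15% higher over all tested regions. In p27KO 31 were lower (8.49%) and 27 higher (7.40%), against 6.48% and 5.83%. These shares are near the background, so the families as a whole changed about as often as the rest of the accessible genome. The median change of the member regions was −0.02 in WT and 0.01 in p27KO, beside 0.03 and 0.04 over all tested regions. Of the called regions, 37 of the 42 lower (88.1%) and 37 of the 40 higher regions (92.5%) had their summit in an intron, as did 294 of all 365 tested member regions (80.5%). Of the tested member regions, 16 had a peak in PRO libraries only and 3 in DIFF libraries only (4.38% and 0.822%, against 3.66% and 1.35% of all tested regions). Such regions entered the fit through the condition where they are high, so they are described below without a test. Regions with peaks in all libraries of 1 condition and only a few of the other also met the filter through the condition where they are high. Those named include regions of Itgav, Itgb5, Itga8, Lama4, Lama5, Lamb3, Col22a1, Col11a1 and Col28a1, besides Itgae and Loxl1. Regions of Itgb6 and Col8a2 met it through WT DIFF, where all libraries had a peak, while no WT PRO library had one. The filter favours their p-values, which describe the regions and are not support for a change. Among the 346 tested member regions with peaks in both conditions, 32 were lower and 37 higher in WT (9.25% and 10.7%), against 8.12% and 8.22% of such regions overall. In p27KO 24 were lower and 24 higher (6.94% each), against 5.11% and 4.73%. Among regions with a peak in all 10 libraries, 20 of 174 member regions were called in WT (11.5%) against 11.2%, and 18 in p27KO (10.3%) against 5.79%. Among those with a peak in 5 to 9 libraries, 62 of 191 were called in WT (32.5%) against 28.4%, and 40 in p27KO (20.9%) against 19.9%. A region open in fewer cells and a region less open in each cell cannot be told apart in these bulk libraries. Without WT DIFF replicate 3, the long list, 38 member regions were lower and 39 higher in WT. In p27KO, where a condition has 2 libraries, the count fell from 58 to 37 or 21 without PRO replicate 1 or 2 and to 25 or 32 without DIFF replicate 1 or 2.

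In gene bodies away from any start, 74 of 290 member regions were called in WT (25.5%) against 23.3% of such regions at all genes, and 56 in p27KO (19.3%) against 15.4%. By family these were 14 of 79 integrin (17.7%), 19 of 52 laminin (36.5%) and 41 of 159 collagen regions (25.8%) in WT. In p27KO they were 14 (17.7%), 15 (28.8%) and 27 (17.0%). Regions of a gene are not independent, and the laminin share rests on 6 genes. In WT 45 of the 81 genes had at least 1 called region. Calls pointed only down at 18 genes, only up at 13 and both ways at 14, as the plot of calls per gene shows.

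Of the integrin genes, 11 had a called region in WT, with 8 regions lower and 8 higher of 98 tested (8.16% each, against 10.1% and 9.15% of all regions). The largest rise was in an intron of Itgav, 63.9 kb from its start, at chr2:83787945-83788612. Its percentiles were no peak, 12.9 and no peak in WT PRO, 63.7, 70.9 and 81.3 in WT DIFF, no peak in both p27KO PRO libraries, and 64.6 and 65.5 in p27KO DIFF. DIFF libraries were thus far above PRO libraries in both genotypes, with changes of 2.08 ± 0.20 (SE) in WT and 2.19 ± 0.25 in p27KO (limma adjusted p = 0.000111 and 0.000554). A second Itgav intron region, 34.9 kb from the start at chr2:83758966-83759688, had a peak in all 10 libraries and percentiles of 44.1, 8.63 and 15.4 in WT PRO and 88, 68 and 89.9 in WT DIFF (1.81 in WT and 1.29 in p27KO).

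The largest fall among integrins was in an intron of Itgb5, another beta partner of alphav, 48.7 kb from its start at chr16:33878047-33878794. The percentiles were 80.2, 81.2 and 71.0 in WT PRO and no peak, no peak and 49.8 in WT DIFF, where the long list alone had a peak. They were 82.8 and 78.7 in p27KO PRO and no peak and 43.1 in p27KO DIFF, and the groups did not overlap. The change was −1.52 ± 0.30 (SE) in WT and −1.44 ± 0.36 in p27KO (limma adjusted p = 0.00457 and 0.0250). The p27KO call was lost when any of 3 of the 4 p27KO libraries was left out. Another Itgb5 intron region, 3.4 kb from the start, moved the other way and was called higher in both genotypes (1.14 in WT and 1.24 in p27KO). The bases around the summits of the Itgav rise (chr2:83788165-83788364) and the Itgb5 fall (chr16:33878239-33878438) are given on the plus strand, from the RefSeq GRCm38 genome. They show the central 200 bp of the 300 bp in which motifs were looked for. Capitals mark AP-1 (TGANTCA), TEAD (GGAATG), SOX (ACAATG or ACAAAG) and NFI (TTGGCA) letters on either strand, of which the Itgb5 bases hold none.

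Itgav: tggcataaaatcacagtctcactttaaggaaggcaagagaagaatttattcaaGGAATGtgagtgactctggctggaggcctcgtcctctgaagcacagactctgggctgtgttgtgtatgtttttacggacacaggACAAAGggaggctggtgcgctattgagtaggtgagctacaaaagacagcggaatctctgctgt

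Itgb5: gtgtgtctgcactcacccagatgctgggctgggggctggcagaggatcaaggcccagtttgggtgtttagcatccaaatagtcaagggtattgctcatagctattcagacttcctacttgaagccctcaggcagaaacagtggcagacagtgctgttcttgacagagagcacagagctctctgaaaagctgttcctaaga

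Further integrin rises were in introns of Itgb6, Itga3 and Itga1. Itgb6, an epithelial partner of alphav, had no peak in WT PRO at chr2:60607094-60607690 and percentiles of 49.6, 51.7 and 78.8 in WT DIFF (change 2.00 ± 0.37, SE). This region met the filter of 5 libraries through WT DIFF, so no test is given for WT. In p27KO the percentiles were 17.4 and no peak at PRO and no peak and 71.9 at DIFF, so those groups overlapped (1.11 ± 0.45, limma adjusted p = 0.145). Without p27KO DIFF replicate 1, which had no peak there, the p27KO change was 2.01 and rested on 1 DIFF library. Where brackets give a change with its SE and then a single value, that value is the limma adjusted p. Itga3, a laminin receptor subunit, had a region 5.4 kb from its start with a peak in each of the 5 DIFF libraries and in none of the 5 PRO libraries, at percentiles of 36.5, 27.1 and 61.9 in WT DIFF and 24.4 and 74.6 in p27KO DIFF. Itga1, a collagen receptor subunit, had one 70.6 kb from its start with a peak in all 10 libraries. Its percentiles were 27.7, 36.7 and 15.4 in WT PRO and 75.4, 74.8 and 77.9 in WT DIFF (1.44 ± 0.22, limma adjusted p = 0.00111), and 56.4 and 36.1 against 85.3 and 68.9 in p27KO (1.13 ± 0.27, 0.0194).

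Further falls were in introns of Itga9 and Itga8. Itga9, a receptor subunit for tenascin-C and osteopontin, fell 212.0 kb from its start, from 89.1, 91.3 and 90.3 in WT PRO to 38.0, 10.6 and 67.9 in WT DIFF (−1.33 ± 0.24, SE, limma adjusted p = 0.00298). In p27KO the percentiles were 89.2 and 95.3 at PRO and 34.9 and 65.5 at DIFF (−1.28 ± 0.29, 0.0163). Itga8, a receptor subunit for nephronectin, had a region 7.5 kb from its start with 51.8, 44.2 and 62.2 in WT PRO and no peak in WT DIFF (−1.28 ± 0.23, 0.00271). Both p27KO PRO libraries and 1 of 2 p27KO DIFF libraries had a peak there, and the p27KO change of −0.59 ± 0.28 did not pass (0.207). Start regions of Itga5, Itga7, Itgb5 and Itga3 changed by −0.29 ± 0.21, −0.46 ± 0.22, 0.07 ± 0.17 and 0.32 ± 0.31 (SE) in WT, none of which passed the test.

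**Figure D2:**
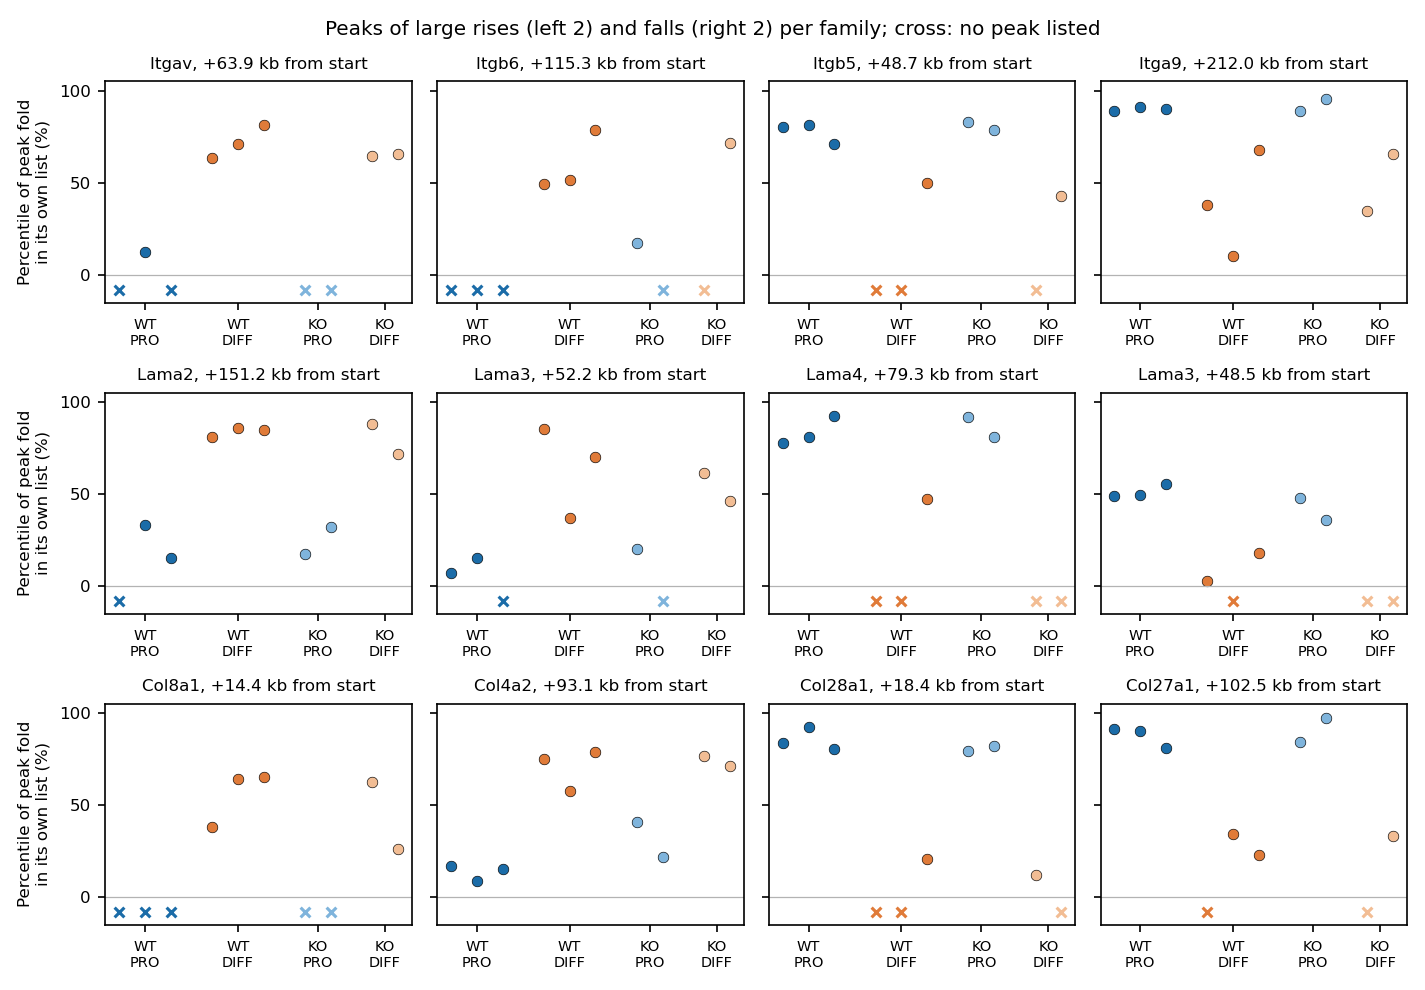
Percentile of peak fold enrichment in its own list (y axis, %) of regions with large rises (left) and falls (right) in integrin, laminin and collagen genes, 1 point per library and a cross where no peak was listed (KO, p27KO). DIFF libraries lay above PRO libraries of the same genotype in the left panels and below them in the right panels, except for Itgb6 in p27KO, where 1 PRO library had a peak and 1 DIFF library had none.

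Laminin genes held 64 tested regions, of which 10 were lower and 10 higher in WT (15.6% each, against 10.1% and 9.15% of all regions). In p27KO 8 were lower and 7 higher (12.5% and 10.9%, against 6.48% and 5.83%). The regions called in WT were higher at Lama2 and lower at Lama4. Lama2 encodes the alpha2 chain of laminins in muscle and around brain vessels, and 3 of its 10 tested regions rose in both genotypes. No region was called lower in WT and 1 was called lower in p27KO, while the other tested regions of the gene did not pass in WT. By presence alone, however, a Lama2 region had a peak in all PRO libraries and in no DIFF library of both genotypes. The largest rise, 151.2 kb from the start at chr10:27467836-27468646, had percentiles of no peak, 33.4 and 15.4 in WT PRO and 81.1, 85.6 and 84.5 in WT DIFF. They were 17.4 and 31.9 in p27KO PRO and 87.9 and 71.9 in p27KO DIFF, so every DIFF library was above every PRO library. The change was 2.06 ± 0.30 (SE) in WT and 1.83 ± 0.36 in p27KO (limma adjusted p = 0.000778 and 0.00797). The p27KO call was lost without p27KO PRO replicate 1 (adjusted p = 0.0627) or p27KO DIFF replicate 1 (0.0710). The nearest region to the Lama2 start, 3.0 kb inside the gene, changed by −0.33 ± 0.29 in WT (0.476).

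Lama4, the alpha4 chain of vascular laminins, had calls in the lower direction. Of its 5 tested regions, 4 intron regions fell in WT and 3 of these fell in p27KO, while the start region, 0.5 kb upstream, changed by −0.47 ± 0.24 (SE) and did not pass (limma adjusted p = 0.204). The largest fall, 79.3 kb from the start at chr10:39044519-39044960, had percentiles of 77.7, 80.7 and 92.0 in WT PRO and no peak, no peak and 47.3 in WT DIFF. They were 91.5 and 80.7 in p27KO PRO, with no peak in p27KO DIFF. The change was −1.80 ± 0.27 in WT and −2.34 ± 0.33 in p27KO (limma adjusted p = 0.000912 and 0.00134). The bases at the summits of the Lama2 rise (chr10:27468441-27468640) and the Lama4 fall (chr10:39044747-39044946) are shown as the largest laminin changes in each direction.

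Lama2: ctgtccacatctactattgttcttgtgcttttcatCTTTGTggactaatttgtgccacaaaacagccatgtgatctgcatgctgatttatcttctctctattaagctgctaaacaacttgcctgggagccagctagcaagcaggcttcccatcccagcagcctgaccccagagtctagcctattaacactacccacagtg

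Lama4: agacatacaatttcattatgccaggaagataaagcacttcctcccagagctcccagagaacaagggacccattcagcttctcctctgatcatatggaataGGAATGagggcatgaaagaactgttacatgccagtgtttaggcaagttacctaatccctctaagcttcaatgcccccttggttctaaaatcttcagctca

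Lama3 and Lamb3 encode chains found in the laminins of skin basement membrane, and both had calls in both directions. In Lama3 the region 52.2 kb from the start rose from 7.45, 15.3 and no peak in WT PRO to 85.4, 36.8 and 69.9 in WT DIFF (1.74 ± 0.30, SE, limma adjusted p = 0.00232). A region 48.5 kb from the start fell from 48.8, 49.5 and 55.3 to 3.07, no peak and 17.8 (−0.84 ± 0.19, 0.00943). Lamb3 had 3 higher and 1 lower regions in WT, of which the largest rise, at chr1:193242213-193242658, had percentiles of no peak, 10.8 and no peak in WT PRO against 44.0, 34.9 and 59.5 in WT DIFF (1.46 ± 0.23, 0.00153). Its gene model in this annotation is 136.2 kb long, and this region lies in the body of Hsd11b1 as well. Lama5, the alpha5 chain of most adult basement membranes, had 2 lower regions in WT. A region 3.0 kb upstream of its start fell by 0.82 ± 0.22 in WT (0.0229), a call lost without WT PRO replicate 1 or 2 or WT DIFF replicate 3 (0.0636, 0.0696 and 0.0643), or with peaks of −log10 q of at least 5 alone, where the change was −0.31 (0.377). Lama1, Lamb1, Lamb2, Lamc1 and Lamc3 had no called region in either genotype.

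**Figure D3:**
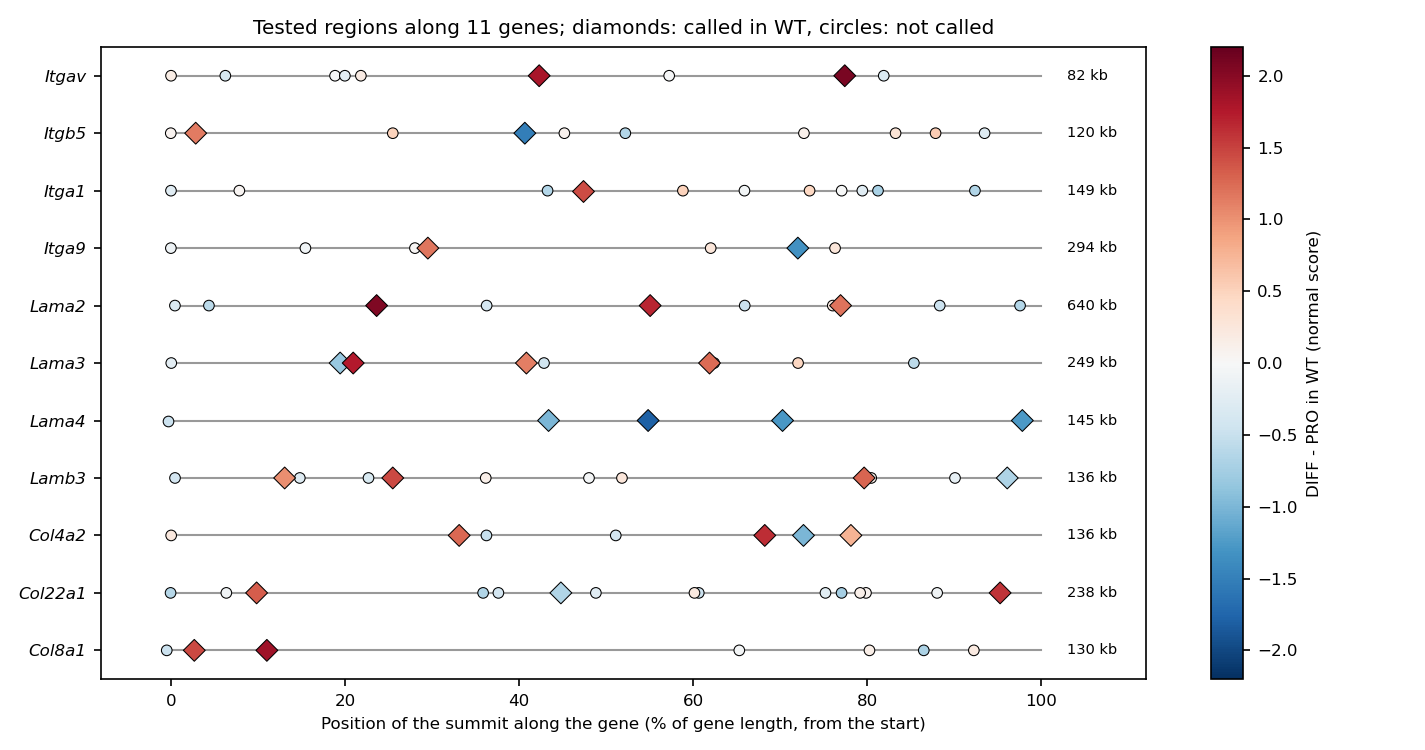
Tested regions along integrin, laminin and collagen genes, with the summit's position as a percentage of gene length from the start (x axis), coloured by the change from PRO to DIFF in WT (normal score), with diamonds for called regions and circles for the rest. The called regions of Lama4 are all lower and those of Lama2, Itgav and Col8a1 all higher.

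Collagen genes held 203 tested regions, of which 24 were lower and 22 higher in WT (11.8% and 10.8%, against 10.1% and 9.15% of all regions). In p27KO 16 were lower and 12 higher (7.88% and 5.91%, against 6.48% and 5.83%). The largest rise was in an intron of Col8a1, a short-chain collagen of vessel walls, 14.4 kb from its start at chr16:57740131-57740571. It had no peak in any of the 5 PRO libraries, percentiles of 38.0, 64.2 and 65.0 in WT DIFF, and 62.7 and 26.3 in p27KO DIFF. It entered the fit through its DIFF libraries alone, so no test is given. The Col8a1 start region, at chr16:57755121-57755709, went the other way and was not called. It had a peak in all 5 PRO libraries, at percentiles from 11.4 to 34.2, and in no DIFF library. The largest fall was in an intron of Col28a1, 18.4 kb from its start at chr6:8174089-8174492. Its percentiles were 83.8, 92.3 and 80.2 in WT PRO and no peak, no peak and 20.5 in WT DIFF, and 79.0 and 82.1 in p27KO PRO and 12 and no peak in p27KO DIFF. The change was −2.10 ± 0.23 in WT and −1.76 ± 0.29 in p27KO (limma adjusted p = 0.000200 and 0.00280). These regions are shown as the strongest collagen changes in each direction (chr16:57740243-57740442 and chr6:8174143-8174342).

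Col8a1: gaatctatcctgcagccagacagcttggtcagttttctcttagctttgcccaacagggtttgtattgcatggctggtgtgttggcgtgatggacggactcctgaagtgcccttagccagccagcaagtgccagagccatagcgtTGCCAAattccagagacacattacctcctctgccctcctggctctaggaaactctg

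Col28a1: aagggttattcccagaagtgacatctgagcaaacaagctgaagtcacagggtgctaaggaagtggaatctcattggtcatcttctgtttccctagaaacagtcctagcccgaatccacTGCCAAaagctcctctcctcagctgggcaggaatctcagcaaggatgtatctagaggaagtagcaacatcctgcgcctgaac

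Chains of the basement membrane collagens had 41 tested regions, with 4 lower and 5 higher in WT (9.76% and 12.2%, against 10.1% and 9.15% of all regions, which also holds for the classes below). The strongest was a Col4a2 intron region 93.1 kb from the start, at chr8:11405774-11406215, which had a peak in all 10 libraries. Its percentiles rose from 16.9, 8.63 and 15.4 in WT PRO to 75, 57.4 and 78.8 in WT DIFF, and from 40.7 and 22.1 to 76.8 and 71.3 in p27KO. Every DIFF library was above every PRO library, and the change was 1.62 ± 0.18 (SE) in WT and 1.41 ± 0.23 in p27KO (limma adjusted p = 0.000223 and 0.00254). Col4a2 held 3 higher and 1 lower regions in WT, whereas none of the 5 tested regions of its neighbour Col4a1 was called. The microfibril-forming chains Col6a1 to Col6a6 had 17 tested regions, 5 lower and 1 higher in WT (29.4% and 5.88%) and 3 lower in p27KO (17.6%, against 6.48% of all regions). Among them, Col6a5 had a region 72.9 kb from its start with a peak in all 5 PRO libraries, at percentiles from 52.1 to 70.2, and in no DIFF library. This region is counted among the lower regions of both genotypes, and a Col6a6 region with peaks in PRO libraries only is counted among those of WT. Both entered the fit through PRO alone, so the lower shares of this class rest partly on the filter.

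Fibrillar collagen genes had 47 tested regions, 6 lower and 4 higher in WT (12.8% and 8.51%). Those of the main fibril chains hardly entered this count, since Col1a1 and Col3a1 had 2 and 1 tested regions and no call in either genotype. The Col3a1 region, 2.6 kb inside the gene, nonetheless lay between the 73.2 and 94.5 percentiles in all 10 libraries. Col11a1, a minor fibril chain of cartilage, had an intron region 22.1 kb from its start that rose in both genotypes, from 22.4 and no peak in 2 libraries in WT PRO to 46.1, 48.5 and 65.0 in WT DIFF (1.53 ± 0.25, SE, limma adjusted p = 0.00174). Col27a1, a fibrillar chain of developing cartilage, fell 102.5 kb from its start, from 91.4, 90.2 and 81.1 to no peak, 34.3 and 23.1 in WT (−1.85 ± 0.35, 0.00401) with −2.17 ± 0.43 in p27KO (0.00791). The collagens that sit on fibrils (FACIT class) had 54 tested regions, 5 lower and 7 higher in WT (9.26% and 13%). Of these, a Col22a1 region 227.1 kb from the start rose from a peak in 1 of 3 WT PRO libraries to percentiles of 53.0, 45.1 and 56.5 in WT DIFF (1.59 ± 0.22, 0.000574). A Col16a1 region 2.8 kb from the start had a peak in all 5 PRO libraries, at percentiles from 49.4 to 70.4, and in no DIFF library. The membrane-spanning collagens had 26 tested regions, with 2 lower and 2 higher in WT (7.69% each). The short-chain networks had 3 of 10 called higher in WT and none called lower, and 1 of the 3 is the Col8a1 region with peaks at DIFF only.

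Most changes had the same direction in both genotypes, which share no library. Of the 42 member regions lower in WT, 40 also had a negative change in p27KO (95.2%, against 97.6% of all regions lower in WT), and 23 were called there. Of the 40 higher in WT, 39 had a positive change in p27KO (97.5%, against 96.9%), and 24 were called. Median changes of the lower regions were −1.07 (WT) and −0.93 (p27KO), and those of the higher regions 1.3 and 1.13. Among the regions named here, the p27KO calls at Itgb5, Itga9, Itga1, Lama2, both Lama3 regions, Col27a1 and Col22a1 were lost when 1 p27KO library or another was left out. The interaction, the test of the difference between the genotypes' changes, called 0 of 365 member regions by limma and 0% of all regions. At an unadjusted p under 0.05 it marked 17 member regions (4.66%) against 3.91% of all. Between p27KO and WT, 0 of 365 were called at DIFF and 0 at PRO, where 0.0156% and 0.034% of all regions were. Unadjusted, 24 (6.58%) and 21 (5.75%) had a p under 0.05, against 4.91% and 5.53% of all regions. Among regions with a peak in 5 or more libraries, no difference between genotypes was therefore detected at these genes with 2 p27KO libraries per condition, which does not show that there is none.

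**Figure D4:**
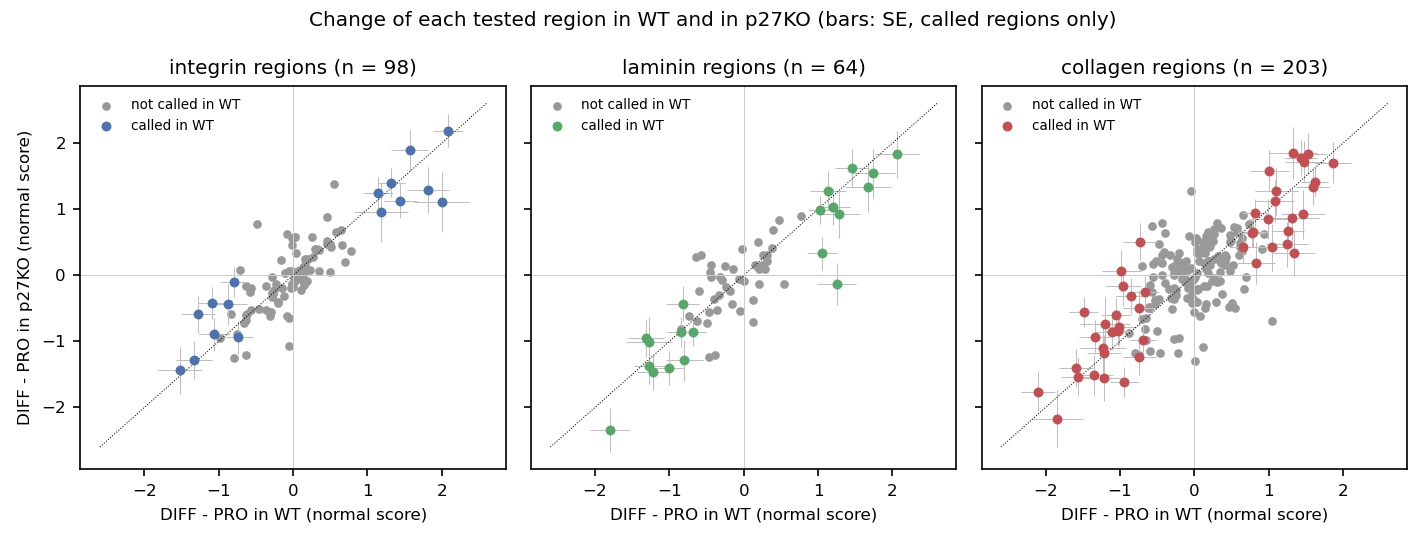
Change from PRO to DIFF in normal score of each tested region in WT (x axis) and p27KO (y axis) for the 98 integrin, 64 laminin and 203 collagen regions, coloured where called in WT, with bars of 1 SE for called regions and a dotted line of equal change. Coloured points run along the line, and 3 of them have opposite signs between the genotypes.

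Presence alone was counted with no test. A region listed in all PRO libraries of a genotype and in none of its DIFF libraries was counted as closed, and the opposite as opened. Of the 509 member regions, 26 closed (5.11%) and 8 opened (1.57%) in WT, against 4.32% and 1.86% of all regions listed in at least 2 libraries. In p27KO 51 closed (10.0%) and 16 opened (3.14%), against 10.9% and 3.32%. The p27KO rule needs 2 libraries per condition and the WT rule 3, so the counts of the genotypes are not comparable. Without WT DIFF replicate 3, 57 of the 509 closed in WT, against 9.9% of all regions. In both genotypes 16 closed (3.14%, against 2.61% of all regions), among them regions at Lama2, Lama4 and 11 collagen genes, including the Col8a1 start region. Regions that opened in both numbered 3 (0.589%, against 0.959%), at Col8a1 (an intron region), Itga3 and Lamb3.

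Partners of these families were looked at through their start regions, with 61 listed genes. Of 36 other matrix proteins and collagen-processing enzymes, 32 had a tested start region, of which 1 was lower and 1 higher in WT and 1 lower in p27KO, beside the 0.793% and 0.379% of all genes called. The lower start, Spp1, which encodes the integrin ligand osteopontin, had a peak at chr5:104434548-104435430 in all 5 PRO libraries, at percentiles from 55.6 to 78.2, and in no DIFF library. It too entered the fit through PRO alone and gets no test. Loxl1, an enzyme that crosslinks elastin, was higher in WT from a region 2.0 kb from its start (1.91 ± 0.36, SE, limma adjusted p = 0.0394 over genes), with 1.95 ± 0.45 in p27KO (0.129). The Loxl1 call in WT was lost with a replicate block and without several single libraries. Of 25 genes of the adhesion complex inside the cell, among them Tln1, Vcl, Ilk and Ptk2, 22 were tested and 0 were called in either genotype, while 4 (18.2%) had an unadjusted p under 0.05 in each, against 15% of all genes in WT and 9.87% in p27KO.

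Short motifs were looked for in 300 bp around each summit, on both strands, as a description of sequence. The letters TGANTCA of AP-1, the Fos and Jun factors that act downstream of mitogens, were in 9 of 42 member regions lower in WT (21.4%), in 0 of 40 higher and in 38 of 283 not called (13.4%). Over all tested regions the shares were 28.3%, 6.95% and 9.13%, so the member regions followed the direction seen across the genome. All 9 were at collagen genes, namely Col4a2, Col5a1, Col6a5, Col6a6, Col16a1, Col22a1, Col24a1, Col25a1 and Col27a1. None of the 8 integrin or 10 laminin regions that fell held these letters. The NFI letters TTGGCA were in 15 of 42 lower (35.7%), 16 of 40 higher (40.0%) and 65 of 283 uncalled member regions (23.0%), beside 25.2%, 38.9% and 21.4% over all regions. The TEAD letters GGAATG were in 31.0%, 27.5% and 20.1% of member regions, beside 21%, 29.2% and 17.3%. The SOX letters ACAATG or ACAAAG were in 40.5%, 52.5% and 37.5%, beside 48.8%, 42.8% and 35.9%, so the order of lower and higher regions was opposite to that over all regions. They were in 7 of 8 integrin, 6 of 10 laminin and 8 of 22 collagen regions that were higher. Among lower regions these were 3 of 8, 3 of 10 and 11 of 24, and among uncalled regions 36.6%, 47.7% and 35%. These family counts are small. The E-box CAGCTG was in 40.5%, 25% and 27.2%, beside 40.8%, 21.2% and 25.6%. The CArG box of serum response factor was in 0 of 42 lower and 3 of 40 higher regions (7.50%), at Itgb6, Col4a2 and Col8a1, beside 1.56% and 2.32%. A region may hold several motifs, and each was counted without regard to the others. A match is not a bound site.

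Of the lower collagen regions with AP-1 letters close to the summit, the 3 with the largest falls are shown to let the letters be seen in place. They lay at chr9:105887625-105887824, chr4:130050535-130050734 and chr9:105696915-105697114, with matches to AP-1, TEAD, SOX or NFI letters in capitals. In Col6a6, whose region had a peak in all 5 PRO libraries and no DIFF library, AP-1 letters occurred 2 times.

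Col6a5: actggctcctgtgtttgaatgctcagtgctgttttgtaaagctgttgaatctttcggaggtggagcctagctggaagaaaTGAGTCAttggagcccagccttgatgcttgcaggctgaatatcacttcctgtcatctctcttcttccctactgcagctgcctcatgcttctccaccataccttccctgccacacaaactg

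Col16a1: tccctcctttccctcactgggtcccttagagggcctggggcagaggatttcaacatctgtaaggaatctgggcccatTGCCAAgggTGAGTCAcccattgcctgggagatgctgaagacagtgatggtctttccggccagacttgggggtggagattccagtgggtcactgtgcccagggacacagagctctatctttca

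Col6a6: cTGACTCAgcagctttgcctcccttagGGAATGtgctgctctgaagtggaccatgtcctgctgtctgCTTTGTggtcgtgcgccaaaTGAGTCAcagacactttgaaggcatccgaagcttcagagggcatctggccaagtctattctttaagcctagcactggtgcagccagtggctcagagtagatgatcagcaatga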

How the data were processed

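ATAC-seq was analysed in 10 mouse libraries of 4 groups. Per the study's methods, the authors clipped and trimmed reads (Cutadapt, Trimmomatic), aligned them (Bowtie2) and called peaks in each library with MACS2; versions, read shift and extension are not given in the sources used here. The deposited peak lists hold the fold enrichment at the summit, a ratio over the local background, and the −log10 p-value and −log10 q-value that MACS2 gave. They hold no reads, so the depth is unknown, and no interval that needs it was computed. Longer lists hold more weak peaks, which ranks within a list only partly remove.

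Overlapping peaks (1 bp) were merged. Regions listed in 5 or more libraries (70627) were ranked by fold within each list, with missing peaks tied lowest, turned into normal scores and fitted with limma 3.58.1 (R 4.3.3), 1 mean per group, with Benjamini-Hochberg adjustment over all regions at 0.05. The read-based test of the study could not be run on peaks. Start tests took the region nearest each gene start within 3 kb and adjusted over 14504 genes. The fitting step was checked on simulated normal scores without tied missing peaks or the filter of 5 libraries, so the check does not cover these. Genes and features were those of GENCODE M21 (GRCm38), whereas the study used M18. Peaks of the same gene share its cells, and the study calls its replicates biological without saying whether the ATAC-seq libraries came from separate animals or separate cultures, so p-values measure the spread between these libraries.

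The 4 largest rises and 4 largest falls in WT per family, 1 region per gene, with the same sign in p27KO, and the start regions of 20 listed genes were named; 1 gene among these is not reported here. The second Itgav and Itgb5 regions and the motif examples were chosen after their values were seen. Members and lists were chosen with earlier results of these data known. Motifs were read in 70509 regions on the assembled chromosomes. Alternatives were another ranking value, filters, thresholds, list lengths, a summit window, autosomes, the compared groups alone, any transcript start, a replicate block and each library left out.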

Additional observations from a re-analysis of the deposited data

How the results depend on the processing

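In WT the count of called member regions was 72 to 92 and in p27KO 48 to 62 under every alternative to the whole set of libraries except regions with a peak in all 10 libraries, which left 174 regions and 29 (WT) and 19 (p27KO) calls. Leaving out 1 library gave 66 to 80 in WT and 21 to 59 in p27KO, 0 for the interaction and for p27KO against WT at DIFF and at PRO. With regions in at least 2 libraries, the interaction and p27KO against WT at PRO each called 1 region, which was listed in p27KO PRO only. In WT, PRO and DIFF libraries of the same replicate number were weakly correlated around their group means (0.0575, 0.0647 and 0.0328), against −0.0508 to −0.00477 for different numbers. In p27KO the same-number value was −0.141, which says little with 2 libraries per condition. Whether the numbers pair the samples is therefore not settled. The replicate block gave 86 calls in WT and 57 in p27KO, with 1 member start and 1 partner start in WT and 0 and 0 in p27KO. A crossed block in p27KO, chosen after seeing the data, gave 92 and 58, and the same start counts. Start calls of members, 2 in WT and 1 in p27KO, became 1 and 0 with regions in all 10 libraries or with the compared groups alone. The p27KO count was 0 with regions in at least 2 libraries or the top 57000 peaks. Partner starts, 2 in WT and 1 in p27KO, became 1 in WT when ranked by −log10 p, with regions in at least 2 libraries or with peaks cut to 100 bp around the summit, 0 in both with regions in all 10, 2 in p27KO with the top 57000 peaks and 0 in p27KO with the compared groups alone. Leaving out 1 library gave 1 to 2 member and 1 to 2 partner starts in WT, and 0 to 1 of each in p27KO. With the top 57000 peaks 19 member regions opened in WT and 30 closed in p27KO. Without 1 library 27 to 57 closed and 9 to 18 opened in WT, and 66 to 97 closed and 19 to 39 opened in p27KO. Of the named regions, those whose sign changed were uncalled starts. Ranked by −log10 p, WT changes were −0.16 at Itgav, −0.31 at Itgb1, −0.54 at Itgb8 and −0.08 at Lama5. With regions in all 10 libraries Itgb5 gave −0.02. Leaving out 1 library gave −0.02 to 0.56 at Itga3, −0.03 to 0.22 at Col1a1, −0.40 to 0.04 at Col3a1, −0.01 to 0.22 at Itgb1 and −0.02 to 0.12 at Itgb5. The cause of these changes was not tested. Depth is unknown, so weak peaks missing from short lists cannot be told apart from closed chromatin.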

Other observations

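When the fit was widened to regions listed in 2 or more libraries, 1 member region was called between the genotypes. It lies inside Itga9 at chr9:118674950-118675061 and was listed in both p27KO PRO libraries, at percentiles of 93.3 and 98.5, and in no other library. It passed that filter through the group where it is high, so its call follows from the filter and no test is given. The region is not among those with a peak in at least 5 libraries, and what a narrow peak in 2 libraries of the same group represents was not tested.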
